A study of Mus musculus with 4 samples.

Results

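The genes described here encode 10 enzymes and chaperones that modify and fold collagen chains inside the cell: P4ha1, P4ha2, P4ha3, Plod1, Plod2, Plod3, Crtap, Ppib, Fkbp10 and Serpinh1. Their probes were found by these gene names among the non-control probes of 4 dual-colour mouse expression arrays, which gave 14 probes for the 10 genes, out of 19616 genes tested. Each array carried RNA of sorted primary odontoblasts, the cells that lay down dentin, labelled with Cy5, and RNA of sorted calvarial osteoblasts, the bone-forming cells of the skull vault, labelled with Cy3. Both cell types came from matched donors, mice 2 weeks old that express EGFP under a 2.3 kb type I collagen promoter. The odontoblasts were taken from dental pulp and the osteoblasts from calvarial bone, by enzyme digestion and a sort on the green fluorescence, so both were selected for activity of a collagen promoter. The strain C57BL/6 is given for the odontoblast channel, and no number of animals per array was given. Arrays are numbered 1 to 4 as in their titles. All ratios are log2 of Cy5 over Cy3 and are positive where the signal labelled odontoblast was the stronger.

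All arrays had the same dye orientation, so dye and cell type cannot be told apart within these ratios. A gene is called where limma's adjusted p was under 0.05. Marker genes ran against the labels. Of 4 odontoblast markers, all had ratios below 0 on all 4 arrays and 1 was called, with summed dye-normalized signals of 2620 to 5740 in Cy5 and 13900 to 43500 in Cy3. Of 6 bone markers (Ifitm5, Col1a1, Col1a2, Ibsp, Spp1 and Pth1r), all had ratios above 0 on all 4 arrays. Limma called 3 of them, Ifitm5, Col1a2 and Pth1r. Their summed signals, both collagens included, were 313000 to 474000 in Cy5 and 37700 to 108000 in Cy3. Col1a1 and Col1a2 encode type I collagen, which both bone and dentin hold, and they are counted again below as substrates. On their own they do not tell the 2 cell types apart. The dentin gene Dspp had a mean ratio of -1.95 (adjusted p = 0.0602), and Wnt10a, a Wnt ligand with a role in tooth formation, was called higher in the Cy3 channel, which is labelled osteoblast (-5.91, adjusted p = 0.00578). Ifitm5, whose protein sits in the membrane of osteoblasts during mineralisation, was called higher in the Cy5 channel (5.05, adjusted p = 0.0167). Channels are therefore named below by dye, and every sign would turn if the labels were exchanged. Between 75.5% and 85.2% of probes lay well above background in Cy5, and between 67.8% and 80.9% in Cy3. Ratios of 2 arrays correlated across features with r between 0.304 and 0.489. The number of arrays, 4, limits the precision, and since the labels do not say which animals went into which array, p-values may cover technical spread only.

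Newly made collagen chains are modified in the endoplasmic reticulum before they form a triple helix. Prolyl 4-hydroxylase, a tetramer of catalytic alpha subunits and the protein disulfide isomerase P4hb, hydroxylates prolines and so makes the helix stable at body temperature. Lysyl hydroxylases prepare lysines for glycosylation and for the crosslinks of the finished fibril, and a complex of P3h1, Crtap and Ppib adds 3-hydroxyproline. Fkbp10 and Serpinh1 bind procollagen while it folds. In humans, mutations in the genes of several of these proteins cause brittle bone disease, in which the main collagen of bone and dentin is affected.

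Of the 10 genes, 1 was called, P4ha3, which encodes a catalytic alpha subunit of prolyl 4-hydroxylase. It was 3.58-fold higher in the Cy5 channel, at a mean log2 ratio of 1.84 ± 0.28 (SE, n = 4). Its adjusted p of 0.0499, from limma with Benjamini-Hochberg adjustment over all 37366 features, lay just under the threshold of 0.05, and the call was lost in 10 of 15 other settings, among them every fit with 1 array left out. When array 1 or array 2 was left out, 0 genes in all were called by limma, and 3165 and 3385 had an unadjusted p under 0.05. Of the 10 genes, 0 were called higher in Cy3 (0 at an unadjusted p under 0.05). Among all genes tested, 1.28% were called higher in Cy5 and 0.872% higher in Cy3. In RNA of sorted cells, more cells of a type and more RNA per cell cannot be told apart.

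Sequences of the probes are shown for the genes that had several, since their probes did not all give the same ratio. Each probe is 60 bases long, and its first 30 bases are shown 5′ to 3′ as the files give them. The coordinates are those of the whole probe on mm9, as the files give them. Whether a probe lies in coding sequence or in a UTR was not analysed here.
P4ha3, probe A_55_P2003034, chr7:107467431-107467490, plus strand: tggatccacgagtatggacaggaattccga
P4ha3, probe A_55_P2003033, chr7:107463120-107463179, plus strand: gcccagcagccccctgtacagaatgaagtc
P4ha1, probe A_55_P2097808, chr10:58835625-58835684, plus strand: gaagatcagcagtgttaacccagggtccta
P4ha1, probe A_55_P2003043, chr10:58835012-58835071, plus strand: ggctcattttaattctccaagaaagtagat
Plod1, probe A_51_P320304, chr4:147290037-147291457, minus strand: aggagatggaacactatggccagtggtctc
Plod1, probe A_55_P2169784, chr4:147302568-147302627, minus strand: caaatcaatatcagcctggaccatcgctgc
Plod1, probe A_55_P2169779, chr4:147290316-147290375, minus strand: tggagctgttctttgtttaaggactgagga
The coordinates of the Plod1 probe A_51_P320304 span 1421 bases for a probe of 60, so the file places it across a gap in the genome. The other Plod1 probe near it, A_55_P2169779, lies within that span and is annotated in the files with an Ensembl transcript, while the other 6 probes shown carry RefSeq mRNA accessions.

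The alpha subunits of prolyl 4-hydroxylase did not share 1 pattern over the arrays. P4ha3 had ratios of 1.87, 2.69, 1.29 and 1.50 on arrays 1 to 4 (95% interval of the mean 1.15 to 2.53). All 4 lay above 0, and array 2 was the highest. In dye-normalized signal of the scanner software, P4ha3 read 16474, 22399, 18260 and 21628 in Cy5 on arrays 1 to 4, against 4498, 3557, 7400 and 7659 in Cy3. The lowest Cy5 value was above the highest Cy3 value, and Cy3 was higher on arrays 3 and 4 than on arrays 1 and 2. The share of all genes with channels so separated was not computed. The other P4ha3 probe had ratios of 1.92, 2.23, 1.07 and 1.51. Its mean of 1.68 ± 0.25 (SE) had an adjusted p of 0.0468 in a limma fit with single probes as features, where the brighter probe had an adjusted p of 0.0504.

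P4ha1 encodes the main alpha subunit of many tissues, and its brighter probe had ratios of 2.38, 0.17, 0.12 and 0.58 on arrays 1 to 4. Array 1 stood far above the other arrays, and the mean of 0.81 ± 0.43 (SE) did not pass the test (fold 1.76, adjusted p = 0.365). The Cy5 signal of P4ha1 was 19356 on array 1 and 5906 to 9803 on the others, and its Cy3 signal was 3629 on array 1 and 5326 to 9024 on the others. Both channels of array 1 thus differed from the rest, in opposite directions. The second P4ha1 probe, well above background in Cy3 on only 2 arrays, had ratios of 1.25, 0.10, 0.06 and 0.10 and showed the same high array.

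P4ha2, a further alpha subunit, went both ways. Its ratios were 1.80, -0.49, 1.05 and -0.33 on arrays 1 to 4, with a mean of 0.51 ± 0.44 (SE, adjusted p = 0.565). Arrays 1 and 3 were high and arrays 2 and 4 lay below 0. P4hb, which encodes the shared beta subunit, had ratios of 1.63, 0.59, 0.33 and 0.06, all above 0 (mean 0.66, adjusted p = 0.311).

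Within arrays, the P4ha3 ratio exceeded that of P4ha2 by 0.08, 3.18, 0.24 and 1.83 on arrays 1 to 4, a mean difference of 1.33 ± 1.46 (SD, n = 4). The P4ha3 ratio exceeded that of P4ha1 on 3 of 4 arrays, by a mean of 1.03 ± 1.24 (SD). Neither difference passed an exact two-sided sign-flip permutation test (p = 0.125 and 0.250, adjusted over 6 pairs of paralogs 0.250 and 0.375). With 4 arrays that test cannot go below 0.125, so these p-values do not show that the subunits behave alike. Over the 4 arrays, the genes with the most similar ratios to P4ha3 were Nat8f7, Gm6571 and Plpp1, at root mean square distances of 0.150, 0.187 and 0.245 on the log2 scale.

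**Figure D1:**
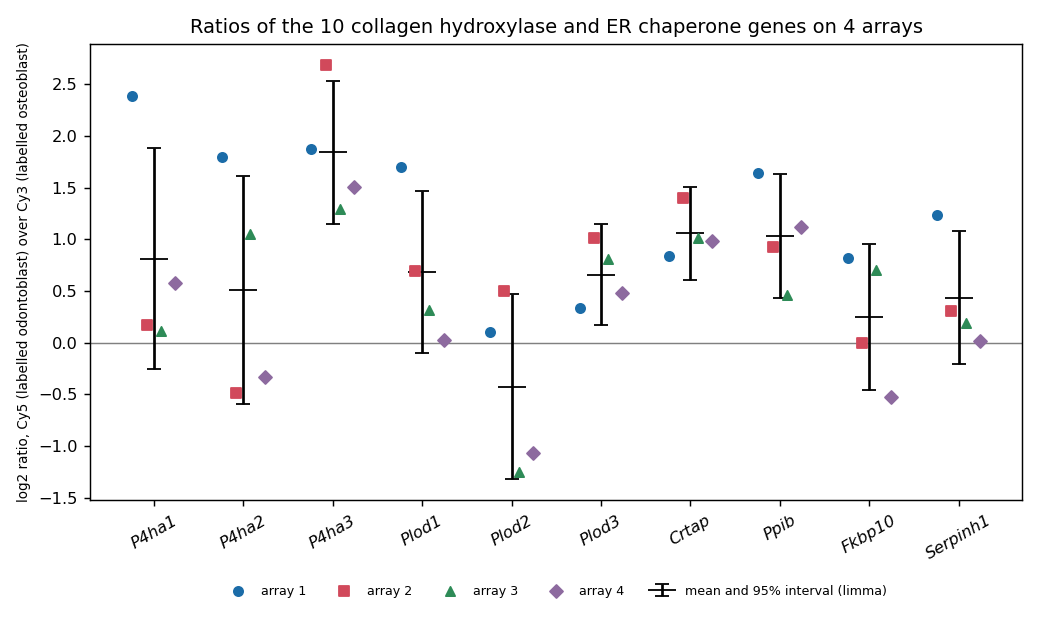
Log2 ratios of Cy5 (labelled odontoblast) over Cy3 (labelled osteoblast) for the 10 genes, with a coloured point per array and, in black, the mean with its 95% interval from limma. P4ha3 lies above 1 on all 4 arrays, P4ha1, P4ha2, Plod1, Ppib, Fkbp10 and Serpinh1 have their highest point on array 1, and the mean of Plod2 lies below 0 (it was 0.31 with median centring).

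The lysyl hydroxylases were not called. Plod3, an enzyme with both hydroxylase and glycosyltransferase activity, varied least among them, with ratios of 0.34, 1.01, 0.81 and 0.48 on arrays 1 to 4. All lay above 0, and the mean was 0.66 ± 0.19 (SE, fold 1.58, unadjusted p = 0.0166, adjusted p = 0.174). Plod1, which hydroxylates lysines of the triple helix, had ratios of 1.70, 0.69, 0.32 and 0.02 with its brightest probe, a mean of 0.68 ± 0.31 (SE, adjusted p = 0.311). As with P4ha1, array 1 was the highest.

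The probes of Plod1 differed from each other. Probe A_55_P2169784 had ratios of 1.51, 0.98, 1.45 and 0.75, and its mean of 1.17 ± 0.21 (SE, limma fit of single probes, adjusted p = 0.0730) was above that of the first probe. The Ensembl-based probe A_55_P2169779 had ratios of -0.22, -0.12, -0.64 and 0.39 and a mean of -0.15 (adjusted p = 0.754). Its dye-normalized signals were 141 to 356 in Cy5 and 166 to 296 in Cy3, low but well above background on all 4 arrays in both channels. The first probe read 36323, 26173, 19762 and 18052 in Cy5 on arrays 1 to 4, against 11007, 16218, 16016 and 17953 in Cy3.

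Plod2 encodes the lysyl hydroxylase of the telopeptides, the ends of the chain where crosslinks form. It was the one gene of the 10 with a mean below 0, at -0.43 ± 0.36 (SE, 95% interval -1.32 to 0.47, adjusted p = 0.551), and its sign turned to 0.31 with median centring in place of loess. Its ratios were 0.10, 0.50, -1.25 and -1.07 on arrays 1 to 4, so arrays 1 and 2 lay above 0 and arrays 3 and 4 below. In Cy5 the signal of Plod2 was 18668, 21401, 15235 and 13538, and in Cy3 it was 18024, 15555, 39095 and 28911. The split between the arrays was larger in Cy3, whose log2 intensity had an SD of 0.62 over arrays after normalization, against 0.30 in Cy5. P4ha3 (0.59 against 0.31) and Crtap (0.35 against 0.13) also had a larger SD in Cy3. By less, so did Plod3 (0.188 against 0.155), Ppib (0.269 against 0.246), Serpinh1 (0.288 against 0.271) and Plod1 (0.392 against 0.385). For P4ha2 and Fkbp10 the SD was larger in Cy5, as it was by little for P4ha1 (0.617 in Cy5 against 0.606 in Cy3).

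The Plod1 ratio exceeded that of Plod2 on 4 of 4 arrays, by a mean of 1.11 ± 0.66 (SD), and the Plod3 ratio exceeded that of Plod2 on 4 of 4 arrays, by 1.09 ± 0.86 (SD). Each had the smallest p that the exact sign-flip permutation test can give for 4 arrays, 0.125 (0.250 adjusted over the 6 pairs). Plod1 and Plod3 differed by a mean of 0.025 ± 0.89 (SD), with the sign of array 1 opposite to that of the other arrays (exact permutation p = 1).

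**Figure D2:**
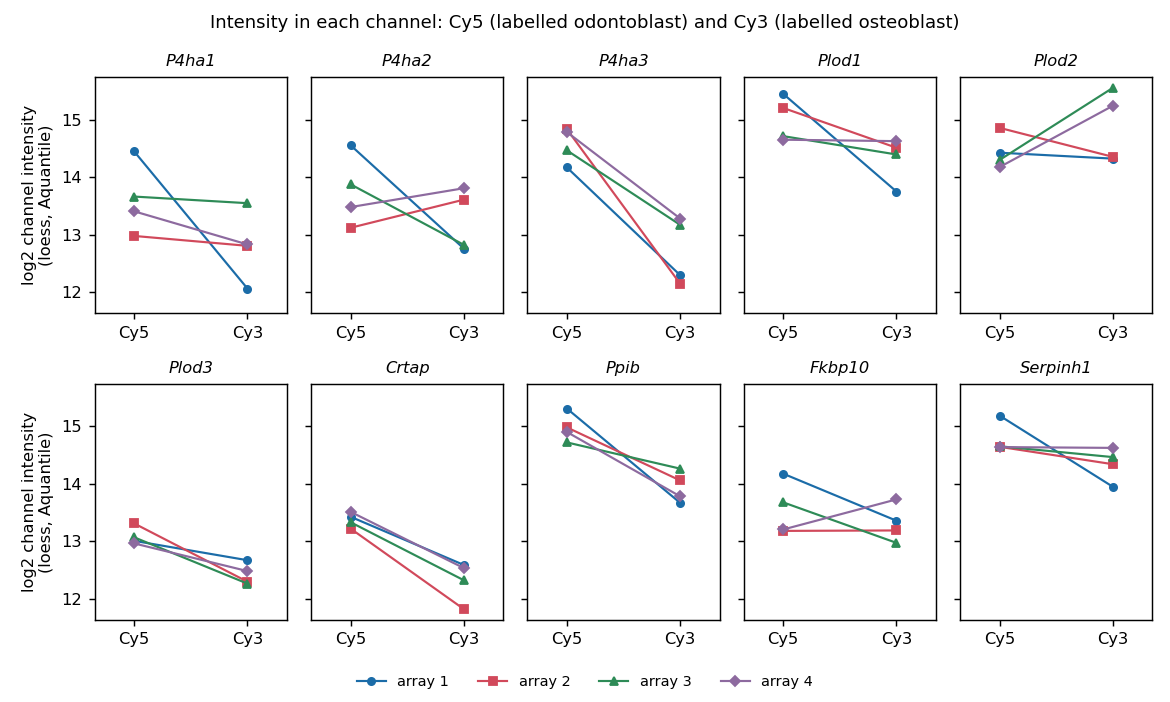
Log2 intensity of each gene in Cy5 (left, labelled odontoblast) and in Cy3 (right, labelled osteoblast), after loess within arrays and Aquantile normalization between them, with a line per array. The lines of 7 genes (all but P4ha2, Plod2 and Fkbp10) are higher at the Cy5 end on all 4 arrays, as were 16% of all genes. Those of Plod2 differ mainly at the Cy3 end (SD 0.62 over arrays, against 0.30 in Cy5), as do those of P4ha3 and Crtap.

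Of the complex that adds 3-hydroxyproline, Crtap and Ppib had ratios above 0 on all arrays, P3h1 did not, and none of the 3 was called. Crtap, the scaffold of the complex, had the narrowest spread of the 10 genes, with ratios of 0.84, 1.40, 1.01 and 0.98 on arrays 1 to 4. Its mean of 1.06 ± 0.18 (SE) is a 2.08-fold ratio, and its adjusted p was 0.0658, not under the threshold. In Cy5 its dye-normalized signal was 9307, 6664, 7124 and 8264, against 5091, 2566, 3617 and 4132 in Cy3, so the channels did not overlap. Ppib, the prolyl isomerase cyclophilin B, had ratios of 1.64, 0.92, 0.46 and 1.12, with a mean of 1.03 ± 0.24 (SE, fold 2.05, adjusted p = 0.121). The Cy5 signals of Ppib, 21104 to 34519, also lay above its Cy3 signals, 10674 to 15634. How many of all genes had channels without overlap was not computed. P3h1, the 3-hydroxylase itself, had ratios of 0.52, 0.36, 0.78 and -0.19 (mean 0.37, adjusted p = 0.416), and its second probe had a mean of 0.50. Array 4 was the only one below 0 for either probe of P3h1.

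Among the genes with a positive mean, Fkbp10 and Serpinh1 lay closest to 0, with P4ha2 next at 0.51. Serpinh1 encodes the collagen chaperone HSP47. Its ratios of 1.24, 0.30, 0.19 and 0.01 on arrays 1 to 4 gave a mean of 0.44 ± 0.26 (SE, adjusted p = 0.412), and array 1 was again the highest. In Cy5 Serpinh1 read 29603, 17361, 18175 and 17352, against 12473, 13817, 16464 and 16962 in Cy3. Fkbp10, a prolyl isomerase and chaperone, had ratios of 0.82, -0.01, 0.70 and -0.52, with a mean of 0.25 ± 0.28 (SE, adjusted p = 0.667). Arrays 1 and 3 were above 0, as for P4ha2.

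Some genes had closely similar profiles over the 4 arrays. Of the 66 pairs among the 10 genes, P4hb and P3h1, the closest was Plod1 with P4hb, at a root mean square distance of 0.0635, followed by Serpinh1 with P4hb at 0.257 and Fkbp10 with P3h1 at 0.289. The most distant pair was P4ha3 with Plod2, at 2.29. These distances are a description over 4 arrays and use the brightest probe of each gene. The closeness of Plod1 to P4hb holds for that probe of Plod1. Probe A_55_P2169784 of Plod1, with ratios of 1.51, 0.98, 1.45 and 0.75, lay further from P4hb. P4hb had 1.63, 0.59, 0.33 and 0.06 on arrays 1 to 4, so the gap was widest on array 3. The distance for this probe was not computed. Distances between genes picked at random were not computed.

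**Figure D3:**
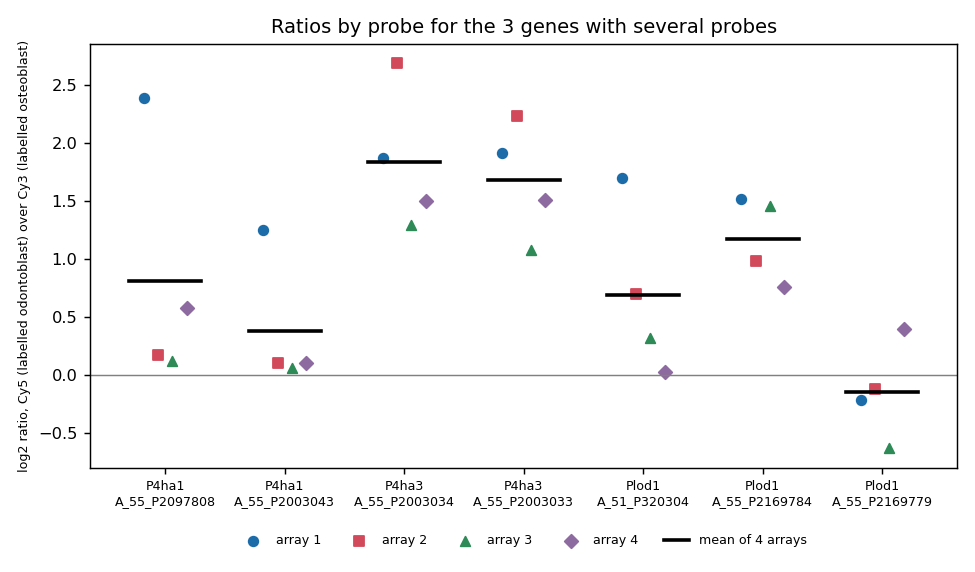
Log2 ratios of Cy5 (labelled odontoblast) over Cy3 (labelled osteoblast) for each probe of P4ha1, P4ha3 and Plod1, with a point per array and a line at the mean of 4 arrays. The P4ha3 probes give means of 1.84 and 1.68, the second P4ha1 probe shows the same high array 1, and the Plod1 probes give 0.68, 1.17 and -0.15.

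By array, the median ratio of the 10 genes was 1.44, 0.60, 0.58 and 0.25 on arrays 1 to 4, while the median of all genes lay between -0.0066 and 0.039. Of the 10 genes, 10, 8, 9 and 7 had a ratio above 0 on arrays 1 to 4. Array 1 held the highest ratio of 6 genes and array 2 that of the other 4. Without array 1 the median of the 10 mean ratios was 0.32, against 0.67 on all arrays, the mean of P4ha1 was 0.29 and that of Serpinh1 was 0.17. Over all arrays, 9 of the 10 genes had a mean above 0, against 50.5% of all genes. Of the 10, 7 had a ratio above 0 on all 4 arrays, against 16% of all genes, and 4 had an unadjusted p under 0.05 with a positive mean (P4ha3, Crtap, Ppib and Plod3), against 11.2%. The 10 genes were chosen with earlier results of these arrays known, so these shares carry no test.

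Other genes of collagen modification outside the 10 were not called. Of 13, limma called 0, and 4 had an unadjusted p under 0.05 with a positive mean. Among all genes, limma called 1.28% higher in Cy5, and 11.2% had an unadjusted p under 0.05 with a positive mean. At a share of 1.28%, a list of this length can hold 0 called genes without differing from all genes. The median of the 13 mean ratios was 0.37, and all but Colgalt2 had a mean above 0. The highest was Fkbp9, an isomerase of the endoplasmic reticulum, at 1.27 (adjusted p = 0.128), with 1.19, 1.67, 1.91 and 0.31 on arrays 1 to 4. The lowest was Colgalt2, a collagen galactosyltransferase, at -0.36 (adjusted p = 0.705), with array 3 at -2.09 and the others between 0.12 and 0.31.

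General folding enzymes and chaperones of the endoplasmic reticulum had a median of 0.67 over 12 genes. Limma called 0 higher in Cy5, and 2 had an unadjusted p under 0.05 with a positive mean, against 1.28% and 11.2% of all genes. It called 0 higher in Cy3. The median of the 10 collagen genes was 0.67 as well. By array, however, it was 1.44, 0.60, 0.58 and 0.25 for the collagen genes, against 1.73, 1.17, -0.24 and -0.13 for the folding genes. Ratios were above 0 on all arrays for 7 of the 10 collagen genes and 2 of the 12 folding genes, against 16% of all genes. The count of the folding genes was thus near that of all genes. Both lists were chosen with earlier results known, so these counts carry no test. The highest mean belonged to Sdf2l1, at 1.36 with 3.15, 2.77, -1.61 and 1.15 on arrays 1 to 4 (adjusted p = 0.420), and the lowest to the oxidase Ero1a, at -0.29 (adjusted p = 0.804). Genes of the export of procollagen from the endoplasmic reticulum lay near 0. Their median was 0.07 over 10 genes, limma called 0, and 0 had an unadjusted p under 0.05. They reached from Mia2 at -0.13 (adjusted p = 0.765) to the coat protein gene Sec13 at 0.61 (adjusted p = 0.270).

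Of 9 fibrillar collagen genes, the substrates of these enzymes, 3 were called higher in Cy5 and 0 in Cy3 (7 and 0 at an unadjusted p under 0.05). Of all genes, 1.28% were called higher in Cy5 and 0.872% in Cy3 (11.2% and 10% at an unadjusted p under 0.05). The median of the 9 was 1.39. Col2a1 (4.34, adjusted p = 0.0481) and Col11a2 (2.22, adjusted p = 0.0403) are collagens of cartilage, and Col1a2 (2.79, adjusted p = 0.0230) is a chain of type I collagen. The EGFP of the sort was itself driven by a type I collagen promoter in both channels. In Cy3, 1 of the 4 arrays measured Col2a1 well above background, and with an array left out at most 1 of the 9 was called. Col1a1, the other chain of type I collagen, had ratios of 2.45, 2.15, 1.10 and 1.50 on arrays 1 to 4, a mean of 1.80 that missed the threshold (adjusted p = 0.0520). The smallest mean was that of Col5a3, at 0.37 (adjusted p = 0.871). No test of the difference between the enzymes and the collagens was made.

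**Figure D4:**
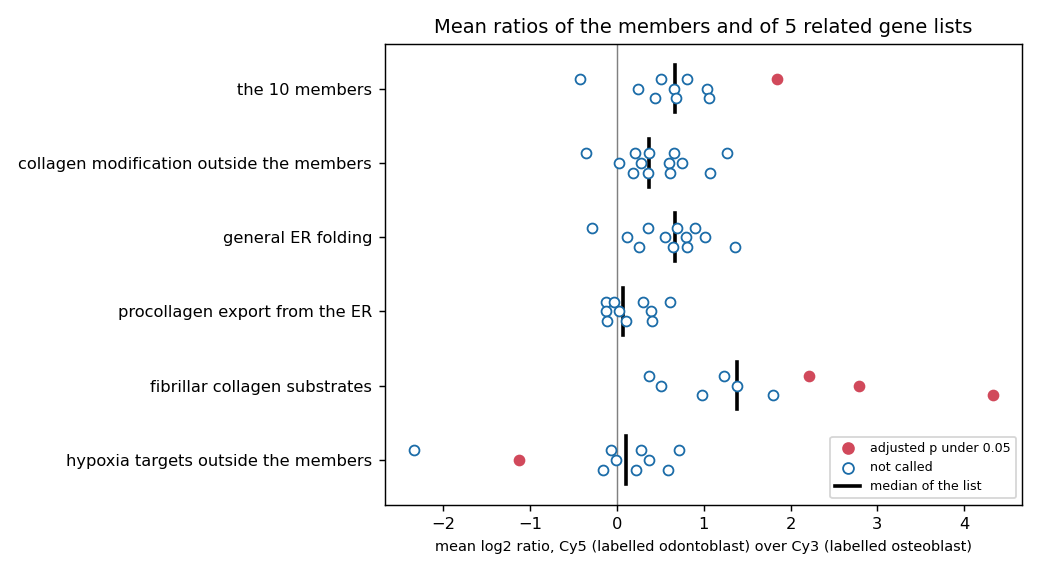
Mean log2 ratios of Cy5 (labelled odontoblast) over Cy3 (labelled osteoblast) for the 10 genes and for 5 lists of related genes, with a point per gene, filled where the adjusted p was under 0.05, and a line at the median. The medians are 0.67 for the 10 genes, 0.37 for other collagen modification genes, 0.67 for general folding genes, 0.07 for export genes, 1.39 for fibrillar collagens and 0.11 for hypoxia targets.

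Low oxygen is known to raise transcription of P4ha1, P4ha2, Plod1 and Plod2 through hypoxia-inducible factor, so other targets of that factor were set beside them. Of 10, limma called 1 higher in Cy3, Ndrg1, at -1.13 (adjusted p = 0.0464) with ratios between -1.28 and -0.98. It called 0 higher in Cy5 (0 at an unadjusted p under 0.05). Of all genes, 0.872% were called higher in Cy3 and 1.28% higher in Cy5. The call of Ndrg1 was lost whichever array was left out. The median of the list was 0.11. It was 0.87 on array 1 and -0.93 on array 4. The highest mean was that of Ankrd37, at 0.72 (adjusted p = 0.663), and the lowest that of Adm, at -2.34 (adjusted p = 0.110).

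The 250 bases upstream of the start of each prolyl hydroxylase gene are shown next, because P4ha1 and P4ha2 are known targets of that factor and P4ha3 was the gene called. They come from RefSeq on GRCm38.p6 and read 5′ to 3′ on the gene's strand. Capitals mark ACGTG, a form of the core of the hypoxia response element, on either strand, so that it also appears as CACGT. The form GCGTG was left out of the search over all windows and is not marked.
P4ha1, chr10:59323046-59323295, plus strand: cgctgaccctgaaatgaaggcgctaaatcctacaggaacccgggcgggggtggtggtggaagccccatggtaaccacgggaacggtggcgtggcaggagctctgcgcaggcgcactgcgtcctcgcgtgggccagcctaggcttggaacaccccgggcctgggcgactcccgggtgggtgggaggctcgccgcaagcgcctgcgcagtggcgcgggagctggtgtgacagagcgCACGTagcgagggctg
P4ha2, chr11:54100674-54100923, plus strand: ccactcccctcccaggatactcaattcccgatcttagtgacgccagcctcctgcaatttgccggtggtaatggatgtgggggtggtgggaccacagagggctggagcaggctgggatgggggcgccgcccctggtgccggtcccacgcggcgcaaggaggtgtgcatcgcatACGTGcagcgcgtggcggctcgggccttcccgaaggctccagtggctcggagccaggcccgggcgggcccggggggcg
P4ha3, chr7:100285270-100285519, plus strand: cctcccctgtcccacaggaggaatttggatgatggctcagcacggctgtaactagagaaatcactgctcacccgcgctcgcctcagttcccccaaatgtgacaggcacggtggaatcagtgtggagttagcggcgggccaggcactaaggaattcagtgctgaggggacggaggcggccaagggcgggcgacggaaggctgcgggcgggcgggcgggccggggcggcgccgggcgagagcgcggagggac
ACGTG began 16 bases upstream of the start in P4ha1 and 78 bases upstream in P4ha2, and these letters were not in the P4ha3 window. Promoter windows were matched for 8 of the 10 genes, and Plod2 and Fkbp10 had none, so they were not searched. ACGTG was found in 5 of these 8 (P4ha1, P4ha2, Plod3, Ppib and Serpinh1), against 16.6% of 32851 promoter windows of the same length. In the windows printed above, GCGTG or its reverse complement CACGC can be read in P4ha1 and P4ha2 and not in P4ha3. The share of all windows with GCGTG was not counted, and other windows without ACGTG may still hold it. The CCAAT box, searched as CCAAT on both strands, was found in 2 of the 8, against 33.8% of all windows. A match describes letters in a window and not a site in use.

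Markers of other cell types differed between the channels as well. Among markers of fibroblasts and periosteum, 4 of 5 were called higher in Cy5 (Tnmd, Aspn, Dpt and Thy1), and their summed dye-normalized signal was 37000 to 56600 in Cy5 and 21400 to 57200 in Cy3. The fifth, Postn, had a mean ratio of -1.62 (adjusted p = 0.0955), and the sums of the channels overlapped. Among cartilage markers 2 of 5 were called higher in Cy5 (Comp and Col2a1), with sums of 30100 to 142000 in Cy5 and 923 to 1430 in Cy3. Of the macrophage markers, 1 of 5 was called higher in Cy5 (Lyz2), with sums of 27200 to 73500 in Cy5 and 20300 to 25500 in Cy3. Within that list, Csf1r was below 0 on all 4 arrays (mean -0.39, adjusted p = 0.285), Cd68 had a mean of -0.10 (adjusted p = 0.841), and the median ratio was 3.26, 0.49, 5.81 and 0.33 on arrays 1 to 4. Of the dental epithelium markers, 2 of 4 were called higher in Cy3 (Odam and Ambn), with sums of 643 to 912 in Cy5 and 2780 to 7060 in Cy3. The other epithelial markers lay near 0, Krt14 at a mean of -0.10 (adjusted p = 0.769) and Amelx at 0.26 (adjusted p = 0.509). Of 3 endothelial markers, 2 were tested and limma called 0 (0 at an unadjusted p under 0.05), with sums of 2100 to 2870 in Cy5 and 2100 to 5410 in Cy3. For Cdh5, the third of them, no array had a Cy3 signal well above background. Apart from Cdh5, each of these markers was well above background on at least 1 array in each channel. The part of these cells in the ratios of the 10 genes was not tested.

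The way an array is centred mattered for these genes. Loess centres the ratios along intensity, and the size of any trend with intensity was not measured here. With median centring in place of loess, the means of the 10 genes were 0.37 to 0.74 larger. P4ha3, Ppib, Crtap and Plod3 were then called higher in Cy5, with means of 2.36, 1.74, 1.44 and 1.02. The same setting moved the median of all genes to 0.20, against 0.0057 with loess, and the median of the 10 genes stood 1.01 above it, against 0.67 with loess. It also put 82.8% of all calls in Cy5, against 59.5% with loess.

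**Figure D5:**
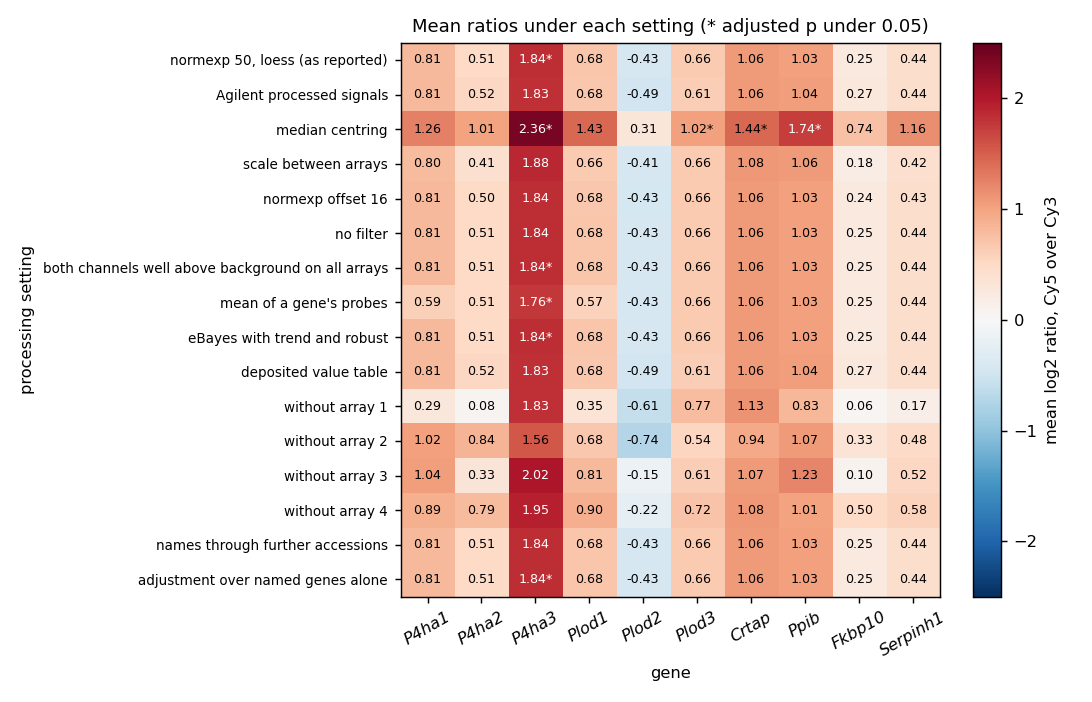
Mean log2 ratios of Cy5 (labelled odontoblast) over Cy3 (labelled osteoblast) for the 10 genes (columns) under the reported processing and 15 other settings (rows), with colour and number giving the ratio and an asterisk an adjusted p under 0.05. P4ha3 stays between 1.56 and 2.36 and passes the threshold in 5 of the 15, and Plod2 is below 0 except with median centring, at 0.31.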

How the data were processed

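Labelled cDNA (250 ng of each) was hybridised to 4 arrays of 1 slide. The scanner output came from Agilent Feature Extraction, version 10.7.3.1 per the file headers, which place probes on mm9. The deposited files hold raw mean and local background intensity for 62976 spots in both channels, background-subtracted and dye-normalized intensity, the log10 ratio of Cy5 over Cy3 and 0 or 1 flags. In the deposited value table, log10 values lay within 0.0001 of that log10 ratio for 99.34% to 99.4% of probes, with column medians of 0. Its direction, scale and centring were read from that match. Steps after scanning are not given in the sources used here.

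Intensities were corrected with normexp (offset 50), normalized by loess and fitted as log2 ratios with limma 3.58.1 in R 4.3.3, by lmFit and eBayes against 0, two-sided. In loess the 3671 control spots got weight 0, and they were left out afterwards. Another 949 outlier spots were set to missing, and 0 spots were saturated. Of 55681 probes, 44233 were kept, those that 3 or more arrays measured well above background in 1 of the channels. The brightest probe stood for a gene, and 37366 features, 19616 of them genes, entered the adjustment. Symbols came from RefSeq (GRCm38.p6) by accession for 27235 probes and from the file for 3581 (current) and 1987 (older). The fit was tested on simulated data. The median spot was 7.1 to 8.21 times its background in Cy5 and 10.9 to 16 times in Cy3.

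The members and lists were chosen with earlier results of these data known. Named genes are the 10 members, P4hb, P3h1, Col1a1, Col1a2, up to 4 called genes of each list with its highest and lowest, and the 3 genes closest to a called member. Marker genes came from lists of cell type markers. The closest pairs of profiles and further folding genes were named after their values were seen. Each array holds both RNAs, so its ratio is the paired difference. The 4 arrays share a slide, so no slide effect could be tested. Alternatives were other background, normalization, filter, probe, variance and naming choices, and leaving out each array.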

Additional observations from a re-analysis of the deposited data

Results flagged for a closer look

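Of 24 sets of 4 array values that were examined for a single outlying array (the 14 probes, P4hb, P3h1, Col1a1, Col1a2 and the medians of the 10 genes and the 5 lists), 1 was far from the others. The dim second probe of P4ha1 had a ratio of 1.25 on array 1 and 0.10, 0.06 and 0.10 on the others, so that the gap to the nearest array was 0.964 of the whole range, more than Dixon's 95% critical value for 4 values. Chance flags about 5% of such sets. On array 1 that probe had a raw signal of 257 in Cy5 over a background of 61.5, and 37.9 in Cy3 over a background of 15.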

How the results depend on the processing

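The brightest probes of the 10 genes stood well above background on every array in Cy5 and in Cy3. P4ha3 kept a mean between 1.56 and 2.36 in 15 other settings but passed in 5. Among these 5 was an adjustment over named genes alone (limma adjusted p = 0.038), a choice made after seeing the data. Where P4ha3 did not pass, its adjusted p in limma was 0.0740 with Agilent's processed signals and with the deposited value table, 0.0680 without a filter, 0.0571 at a normexp offset of 16, 0.0607 with scaling between arrays, 0.05001 when probes were also named through further accessions (likewise a choice made after seeing the data) and 0.0773 to 0.185 with an array left out. The number of the 10 genes called higher in Cy5 was thus 0 in each of these settings, 0 to 0 with an array left out, and 4 with median centring, where their median ratio was 1.21. The mean of Plod2 turned to 0.31 with median centring, and that of Plod1 to -0.15 with the probe A_55_P2169779, and no other sign of the 10 genes turned. In the 5 lists, the calls in Cy5 were 12 with median centring, 1 without a filter and 0 to 1 with an array left out. Their single call in Cy3 was lost (0) with processed signals, the value table, median centring, offset 16, scaling and each array left out. Over all genes, limma called 251 in Cy5 and 171 in Cy3. Calls were 160 and 105 with processed signals, 166 and 106 with the value table, 1163 in Cy5 with median centring, and 0 to 103 and 0 to 77 with an array left out. They were 0 in both directions without array 1 or without array 2, where 3165 and 3385 genes had an unadjusted p below 0.05 (4160 with all arrays). Col1a2 lost its call without array 1, 2 or 4 (adjusted p = 0.0984, 0.112 and 0.114). The causes of these losses were not tested. The fit was itself paired, because each array is the pair, and 1 group of arrays was compared with 0.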

Other observations

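Genes for general folding in the endoplasmic reticulum, which are not specific to collagen, had a median ratio of 1.73 on array 1, 1.17 on array 2, -0.24 on array 3 and -0.13 on array 4, while that of the 10 genes was above 0 on all arrays. Hspa5, which encodes the chaperone BiP, had ratios of 2.30, 2.37, 0.01 and -0.60 on arrays 1 to 4. Hsp90b1 had 2.06, 1.34, -0.33 and -0.29, and the calcium-binding chaperone Calr had 1.69, 1.10, -0.25 and -0.34. Canx and Pdia3 stayed above 0 on all arrays, Canx at 0.84, 0.41, 1.07 and 0.26 and Pdia3 at 1.77, 1.18, 0.41 and 0.24. Among the 10 genes only Plod2 had the same sign pattern as Hsp90b1 and Calr, at 0.10, 0.50, -1.25 and -1.07. The labels give no feature that sets arrays 1 and 2 apart from arrays 3 and 4.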
